A study of Mus musculus with 27 samples.

Results

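DNA replication and E2F target genes were followed in 4T1 mouse mammary carcinoma cells. The set holds 43 genes of the 55401 in the deposited table, chosen by gene name: origin licensing factors, the MCM helicase and its activators, DNA polymerases, clamp and clamp loader, lagging strand and single-strand binding factors, enzymes of deoxynucleotide supply, chromatin factors of S phase, and E2F factors with cyclin E. The series has 27 RNA-seq libraries in 9 groups of 3. The knockout arm has 6 CRISPR-Cas9 lines, each 1 clone. Drp1, encoded by Dnm1l, was knocked out in gs1B8 and in gs2_B4. Fis1 was knocked out in gs1_B11 and in gs2_F6, and Mff in gs1_B4 and in gs1_C8. They are set against parental 4T1 cells, labelled WT. The drug arm has WT 4T1 cells given leflunomide or the vehicle DMSO for 3 days, with the dose not given in the sources used here. Leflunomide is known as an inhibitor of dihydroorotate dehydrogenase, a mitochondrial enzyme of pyrimidine synthesis. Drp1, Fis1 and Mff are proteins of mitochondrial fission. All 43 genes passed the low-count filter in each comparison, and the lowest estimated count of any of them in any library was 114.

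Before S phase, the origin recognition complex with Cdc6 and Cdt1 loads the MCM helicase onto DNA. Cdc45 and the GINS complex then join MCM to form the active helicase, primase and polymerase alpha start new strands, and polymerases delta and epsilon extend them with the PCNA clamp. Many of these genes are transcribed in late G1 and S phase by E2F factors, which the retinoblastoma family holds back, and cyclin E helps to release them. In bulk RNA, fewer cells in S phase and less of these transcripts in each cell cannot be told apart.

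RefSeq promoter windows, 250 bases before to 50 bases after the start on GRCm38.p6, were found for 36 of the 43 genes. The letters TTTGGCGC, TTTCCCGC, TTTGCCGC or TTTCGCGC, which are forms of the E2F site, were searched on both strands. They stood in 15 of the 36 genes (41.7%), against 704 of all 27025 genes in the table (2.60%). Mcm5 and Gins3 hold them and were lower in all 6 clones. Orc1 and Rfc3 hold them too and were lower in no clone, and Mcm6 held 3 matches and was lower in 3 clones. A stretch of each is printed 5′ to 3′ on the gene's strand, with the matched letters in capitals.
Mcm5: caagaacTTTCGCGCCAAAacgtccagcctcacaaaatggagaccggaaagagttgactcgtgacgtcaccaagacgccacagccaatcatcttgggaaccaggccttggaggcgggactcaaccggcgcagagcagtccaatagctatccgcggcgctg
Gins3: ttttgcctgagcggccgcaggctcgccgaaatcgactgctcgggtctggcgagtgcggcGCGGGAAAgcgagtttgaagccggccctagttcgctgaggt
Mcm6: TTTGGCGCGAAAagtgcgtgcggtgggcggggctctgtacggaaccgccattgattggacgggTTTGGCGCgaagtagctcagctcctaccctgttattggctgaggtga
Orc1: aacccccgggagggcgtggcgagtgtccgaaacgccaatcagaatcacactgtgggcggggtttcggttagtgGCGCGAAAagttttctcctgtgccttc
Rfc3: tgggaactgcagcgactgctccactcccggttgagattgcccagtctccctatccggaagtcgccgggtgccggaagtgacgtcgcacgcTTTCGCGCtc
These lie at chr8:75109349-75109508 (plus strand), chr8:95633459-95633558 (plus), chr1:128359706-128359815 (minus), chr4:108579354-108579453 (plus) and chr5:151651209-151651308 (minus). The first capital of Gins3 lies 41 bases before the start, that of Orc1 27 bases and that of Rfc3 10 bases before it. In Mcm5 a match on each strand overlaps at 153 and 149 bases before the start. The shorter letters GGCGGGA or GGCGCGA stood in 19 of the 36 genes (52.8%, against 15.5% of all genes), and part of these overlap the longer ones. CCAAT stood in 23 (63.9%, against 41.1%) and TTTGAA, a form of the cell cycle homology region, in 7 (19.4%, against 20.2%). A match is a description of letters in this window. The windows of E2f1, Orc6 and Prim1 hold none of the longer E2F letters, and that of Cdt1 holds them after the start. The window of Prim1 holds the shorter letters.

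Library totals ran from 18492020 to 31295937 estimated counts. Ribosomal RNA genes took 1.6% to 5.73% of them, except in DMSO library 3, where they took 23.2%. Nothing in the labels says whether the 3 libraries of a group came from separate cultures, so p-values measure the spread between these libraries. The targeted genes checked the labels. Dnm1l differed by -1.68 in gs1B8 and -2.42 in gs2_B4 on the log2 scale, Fis1 by -1.17 in gs1_B11 and -1.47 in gs2_F6, and Mff by -0.88 in gs1_B4 and -1.01 in gs1_C8, each called lower. Summed epithelial markers stood at 1400 to 2720 CPM (TMM-scaled counts relative to library size) in every library. Summed leukocyte markers reached at most 9.5 CPM, endothelial 0.462 CPM and fibroblast 8.07 CPM.

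Per kilobase of merged exon, the parental levels of the 43 genes spanned 306 CPM for Pcna, the sliding clamp, to 1.68 CPM for the activator E2f2. Rrm2, the regulated subunit of ribonucleotide reductase, followed Pcna at 153.5 CPM per kilobase. Thymidine kinase Tk1 came next at 88.3. Within the MCM hexamer the levels lay close together, from 45.2 for Mcm2 to 82.8 for Mcm3, with Mcm5 at 81.6. In the GINS tetramer Gins4 stood at 31.6, Gins1 at 18.99, Gins3 at 12.4 and Gins2 at 5.92 CPM per kilobase. Cyclin E1 (Ccne1, 7.19) was lower than cyclin E2 (Ccne2, 19.9). All other levels in the text are CPM, not corrected for length, and serve only to compare libraries.

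Replication genes were lower in the clones more often than they were higher. A gene is called where edgeR's quasi-likelihood test gave an adjusted p below 0.05 over all genes tested. In gs1B8, 20 of the 43 genes were lower and 0 higher, while 17.4% of all genes tested were lower and 12.1% higher. In gs2_B4, 24 were lower and 5 higher, beside 26.3% and 24.1% of all genes. The Fis1 clone gs1_B11 had 21 lower and 1 higher (25.9% and 21.4% of all genes), and gs2_F6 had 15 lower and 1 higher (18.2% and 13.1%). The Mff clone gs1_B4 had 18 lower and 10 higher (26.8% and 20.9%), and gs1_C8 had 24 lower and 7 higher (25.2% and 21.5%). With unadjusted p below 0.05, gs1B8 had 26 lower and 1 higher, and DESeq2 also called 0 higher there. In gs1_B4 the share of the set called higher, 23.3%, lay near that of all genes. The changes were small: the median log2 fold change of the 43 genes was -0.107 in gs1B8, -0.16 in gs2_B4, -0.131 in gs1_B11, -0.0749 in gs2_F6, -0.0845 in gs1_B4 and -0.17 in gs1_C8, where the median of all genes tested lay between -0.0229 and 0.00304. The count for gs2_F6 fell to 9 without parental library 1.

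**Figure D1:**
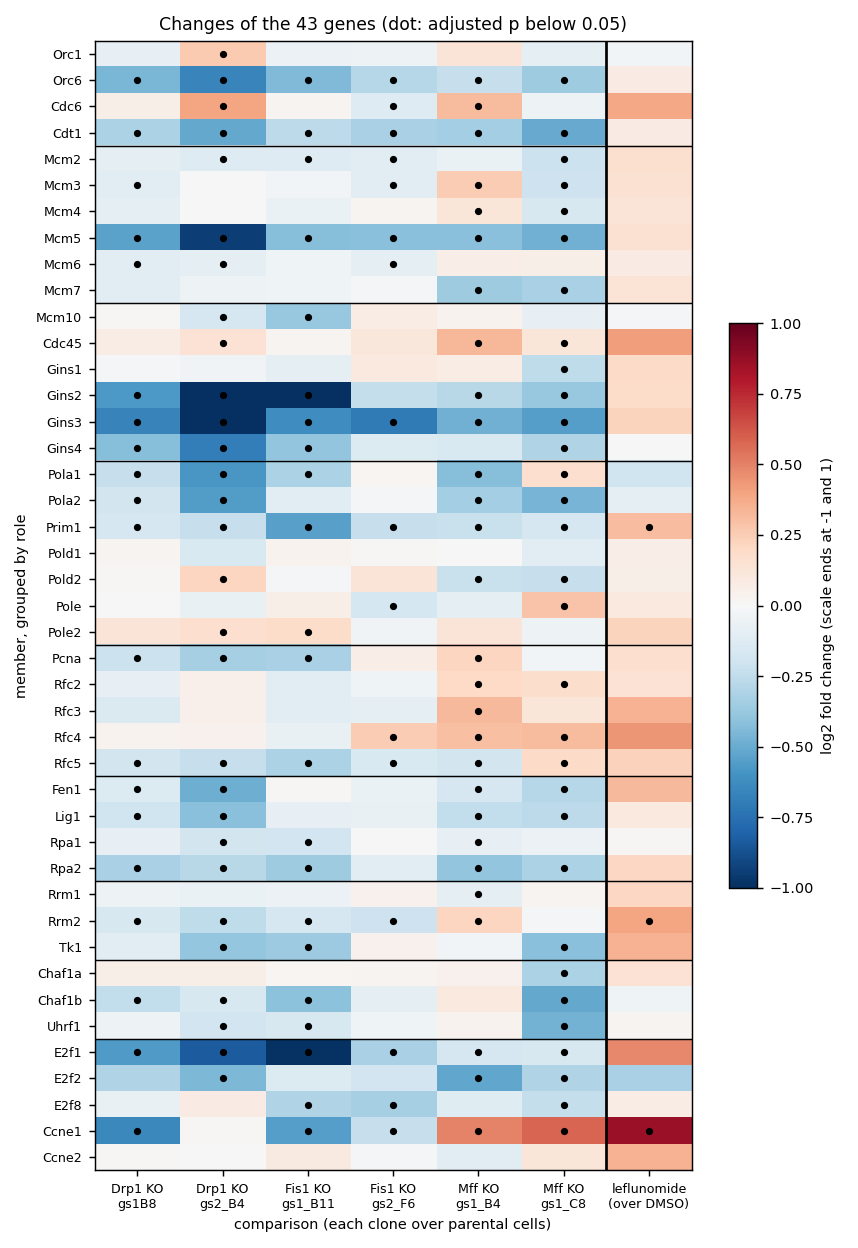
Log2 fold change of each of the 43 genes (rows, grouped by role from origin licensing at the top to E2F factors and cyclin E at the bottom) in the 6 clones over parental cells and with leflunomide over DMSO (columns), with black dots at adjusted p below 0.05. Blue (lower) cells with dots run across all 6 clones for Orc6, Cdt1, Mcm5, Gins3, Prim1 and E2f1, and the leflunomide column holds 3 dots, all on red (higher) cells.

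Both Drp1 clones were lower for 18 genes, with 12.1% of all genes lower in both. These were Cdt1, Orc6, Mcm5, Mcm6, Gins2, Gins3, Gins4, Pola1, Pola2, Prim1, Pcna, Rfc5, Fen1, Lig1, Rpa2, Rrm2, Chaf1b and E2f1. Both Fis1 clones were lower for 11 genes (9.02% of all genes): Cdt1, Orc6, Mcm2, Mcm5, Gins3, Prim1, Rfc5, Rrm2, E2f1, E2f8 and Ccne1. Both Mff clones were lower for 14 genes (11.3% of all genes): Cdt1, Orc6, Mcm5, Mcm7, Gins2, Gins3, Pola2, Prim1, Pold2, Fen1, Lig1, Rpa2, E2f1 and E2f2. No gene was higher in both Drp1 clones (7.94% of all genes were) or both Fis1 clones (5.94%). At unadjusted p below 0.05 those counts were 1 and 0, and DESeq2 called 0 in each. Both Mff clones were higher for 4 genes: Ccne1, Cdc45, Rfc2 and Rfc4. Of all genes 7.37% were higher in both, so this count is near the general share.

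In all 6 clones 6 of the 43 genes were lower, where 2.10% of all genes were, and 0 were higher, where 0.538% were. At unadjusted p below 0.05 the counts were 8 and 0, and DESeq2 gave 5 and 0. The 6 genes are Mcm5, Gins3, Orc6, Cdt1, Prim1 and E2f1. Of the other genes, 3 were lower in 5 clones, 8 in 4, 9 in 3, 3 in 2, 6 in 1 and 8 in none.

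Mcm5 stood at 194, 191 and 202 CPM in the 3 libraries of Drp1 clone gs1B8 and at 152, 146 and 147 CPM in gs2_B4. Fis1 clone gs1_B11 had 212, 213 and 203 CPM of Mcm5 and gs2_F6 218, 219.8 and 201.5 CPM. Mff clone gs1_B4 gave 228.5, 212 and 205 CPM of Mcm5 and gs1_C8 202, 209 and 200 CPM, against 291, 279 and 276 CPM in parental cells. Each clone library lay below each parental library, and gs2_B4 was the lowest group. Mcm5 is a subunit of the MCM hexamer. Its level fell to 52.1% of parental in gs2_B4 and to between 68.9% (gs1B8) and 74.99% (gs2_F6) in the other clones. The log2 fold changes, in the order gs1B8, gs2_B4, gs1_B11, gs2_F6, gs1_B4 and gs1_C8, were -0.54, -0.94, -0.43, -0.42, -0.42 and -0.48 (SE 0.044, largest adjusted p by edgeR 4.18e-07). Mcm5 made up 11.2 to 16.1% of the counts of the 6 MCM subunits in the clone libraries, against 19.1 to 19.6% in parental libraries.

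Gins3 stood at 22.3, 21.03 and 20.4 CPM in the 3 libraries of Drp1 clone gs1B8 and at 15.8, 16.99 and 17.7 CPM in gs2_B4. Fis1 clone gs1_B11 had 20.9, 21.6 and 22.9 CPM of Gins3 and gs2_F6 18.5, 21.4 and 22.1 CPM. Mff clone gs1_B4 gave 22.9, 25.9 and 24.5 CPM of Gins3 and gs1_C8 22.1, 22.2 and 25.02 CPM, against 35.5, 32.02 and 33.1 CPM in parental cells. The clone libraries, which reached at most 25.95 CPM, did not overlap the parental ones. Gins3 encodes a subunit of GINS, the complex that joins MCM and Cdc45 in the active helicase. In the same clone order its log2 fold changes were -0.67, -1.01, -0.62, -0.71, -0.48 and -0.55 (SE 0.071 to 0.073, largest adjusted p 1.19e-05 by edgeR).

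Orc6 stood at 72.8, 78.9 and 74.5 CPM in the 3 libraries of Drp1 clone gs1B8 and at 63.6, 64.9 and 69.2 CPM in gs2_B4. Fis1 clone gs1_B11 had 69.9, 77.03 and 79.8 CPM of Orc6 and gs2_F6 87.6, 82.6 and 85.2 CPM. Mff clone gs1_B4 gave 94.6, 94.7 and 78.95 CPM of Orc6 and gs1_C8 81.8, 81.1 and 79.6 CPM, against 101, 98.6 and 109 CPM in parental cells. No clone library reached the lowest parental value. Orc6 is the smallest subunit of the origin recognition complex. Its log2 fold changes in the same clone order were -0.46, -0.66, -0.44, -0.29, -0.23 and -0.36 (SE 0.062 to 0.063, largest adjusted p 0.00423 by edgeR), and the weakest call was lost where each clone was fitted with the parental libraries alone (adjusted p 0.0679).

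Cdt1 stood at 44.4, 47.2 and 51.4 CPM in the 3 libraries of Drp1 clone gs1B8 and at 41.2, 41.7 and 41.7 CPM in gs2_B4. Fis1 clone gs1_B11 had 50.4, 48.8 and 47.5 CPM of Cdt1 and gs2_F6 47.2, 48.1 and 46.8 CPM. Mff clone gs1_B4 gave 46.6, 47.3 and 47.98 CPM of Cdt1 and gs1_C8 42.97, 41.5 and 40.99 CPM, against 59.9, 59.5 and 56.8 CPM in parental cells. These ranges did not overlap the parental one in any clone. Cdt1 is the licensing factor that brings MCM to origins. Its log2 fold changes were -0.31, -0.51, -0.26, -0.32, -0.34 and -0.50 (SE 0.046, largest adjusted p 9.57e-05 by edgeR).

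Prim1 stood at 83.1, 84.99 and 81.1 CPM in the 3 libraries of Drp1 clone gs1B8 and at 78.5, 73.9 and 87.3 CPM in gs2_B4. Fis1 clone gs1_B11 had 62.1, 62.8 and 65.2 CPM of Prim1 and gs2_F6 78.2, 80.3 and 80.7 CPM. Mff clone gs1_B4 gave 83.1, 82.5 and 78.04 CPM of Prim1 and gs1_C8 85.2, 80.7 and 83.03 CPM, against 94.4, 92.3 and 91.2 CPM in parental cells. Prim1, the catalytic subunit of primase, was lowest in gs1_B11, and all clone libraries lay below the parental ones. The log2 fold changes were -0.17, -0.23, -0.54, -0.23, -0.22 and -0.17 (SE 0.047 to 0.048, largest adjusted p 0.0103 by edgeR). Without parental library 1 the weakest of these calls was lost (adjusted p 0.068), and with no low-count filter too (0.056).

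E2f1 stood at 23.8, 25 and 25.4 CPM in the 3 libraries of Drp1 clone gs1B8 and at 19.9, 20.2 and 21.5 CPM in gs2_B4. Fis1 clone gs1_B11 had 19.2, 18.4 and 17.1 CPM of E2f1 and gs2_F6 30.8, 29.8 and 26.8 CPM. Mff clone gs1_B4 gave 33.99, 32.3 and 32.5 CPM of E2f1 and gs1_C8 31.1, 34.1 and 32.98 CPM, against 36.7, 36.5 and 35.5 CPM in parental cells. The 2 Drp1 clones and gs1_B11 were the lowest groups, and the Mff clones lay just under the parental range. E2f1 is an activating E2F factor and itself an E2F target. Its log2 fold changes were -0.56, -0.83, -0.99, -0.33, -0.17 and -0.16 (SE 0.054 to 0.057, largest adjusted p 0.0225 by edgeR). The weakest call, in an Mff clone, did not hold under DESeq2 (adjusted p 0.0649), with no filter (0.15), with each clone fitted alone (0.0745), with all 27 libraries in 1 fit (0.152), or without any 1 of 8 libraries, among them parental 1 (0.113), parental 2 (0.105) and gs1_C8 library 1 (0.177). The calls in both Drp1 and both Fis1 clones held in each of these.

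**Figure D2:**
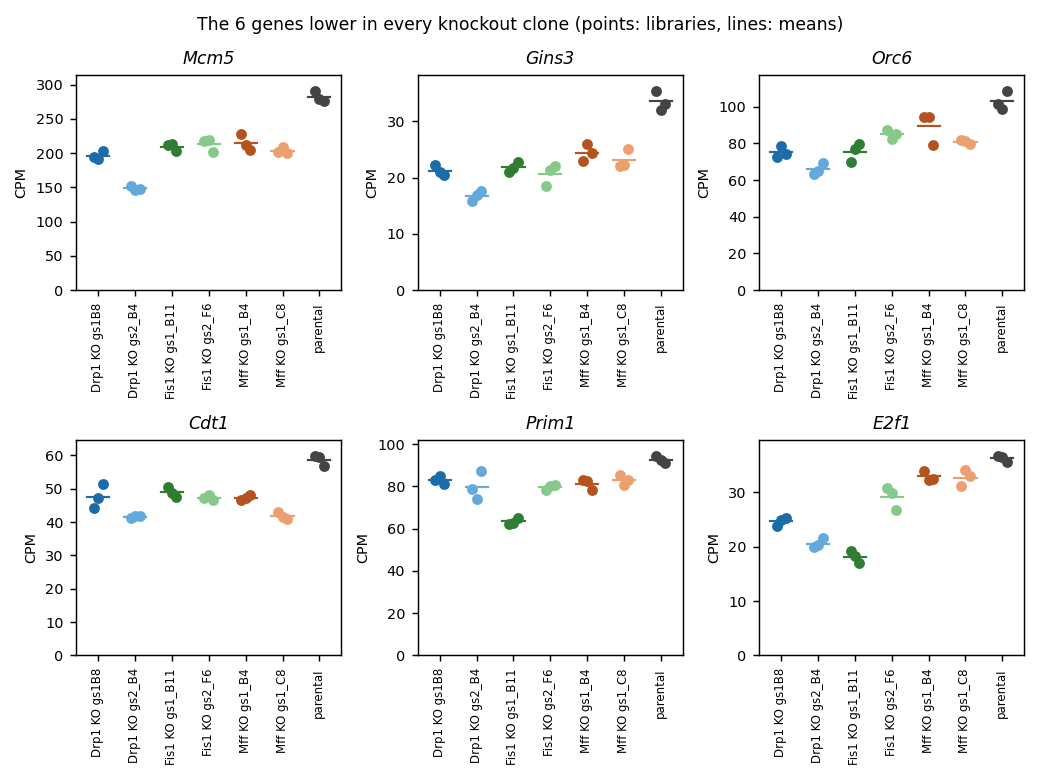
CPM (linear axes from 0) of the 6 genes that were lower in every clone, with a point for each library and a line at the mean of 3, and the clones left of the parental group. Gs2_B4 is the lowest group for Mcm5, Gins3, Orc6 and Cdt1, and gs1_B11 for Prim1 and E2f1.

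The position of the genes runs beside these counts. Chromosome 8 holds 6 of the 43 genes: Gins4, Mcm5, Orc6, Gins3, Gins2 and Cdt1. On GRCm38 they span from chr8:23226616-23237659 to chr8:122568015-122573554. They include 4 of the 6 genes lower in every clone, the exceptions being Prim1 on chromosome 10 and E2f1 on chromosome 2. The other 729 tested genes of chromosome 8 were also shifted down. Their median log2 fold change was -0.36 in gs1B8, -0.573 in gs2_B4, -0.267 in gs1_B11, -0.291 in gs2_F6, -0.257 in gs1_B4 and -0.241 in gs1_C8, against 0.00852 with leflunomide. Between 52.3% (gs1_C8) and 74.1% (gs2_B4) of them were called lower. In all 6 clones 185 of the 729 were lower (25.4%), against 102 of 13168 genes on other chromosomes (0.775%). DNA copy number was not analysed here, and its part in these values was not tested.

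Shifts of other chromosomes differed between clones. Genes of chromosome 19, which holds Pola2 and Fen1, had a median of -0.588 in gs2_B4, -0.311 in gs1_C8 and -0.211 in gs1_B4. The X chromosome, which holds Pola1, stood at -0.729 in gs1_B11, -0.727 in gs1_B4 and -0.5 in gs2_B4, but at -0.0887 in gs1_C8. Chromosome 5, with Mcm7, Pole, Rfc2, Rfc3 and Rfc5, was at 0.237 in gs1_C8. Chromosome 1, with Mcm3 and Mcm6, was at 0.238 in gs1_B4, and chromosome 17, with Chaf1a and Uhrf1, at -0.199 in gs1_C8.

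**Figure D3:**
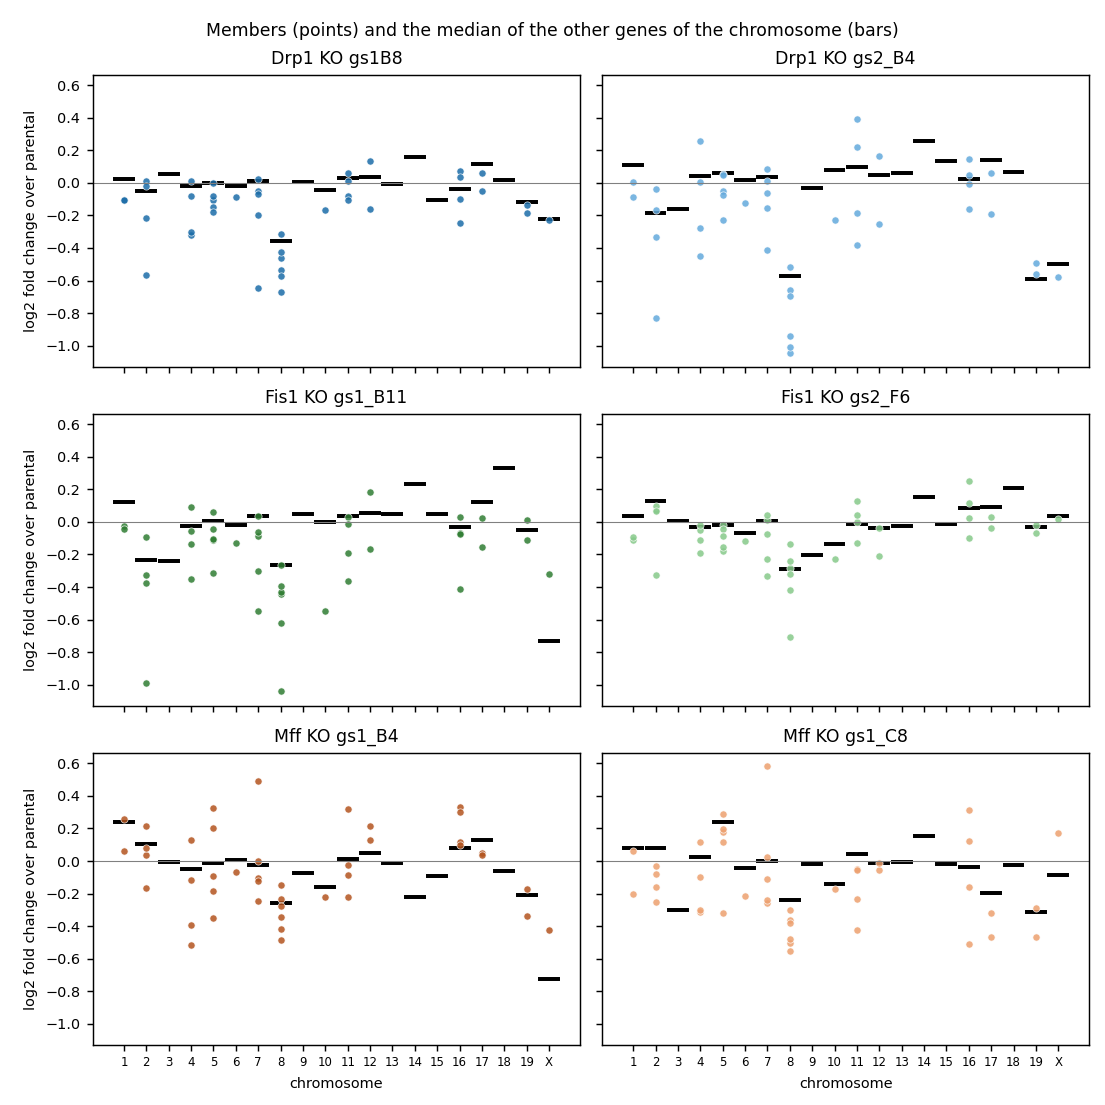
Log2 fold change over parental cells (y axis) of the 43 genes (points) by chromosome (x axis), with a black bar at the median of the other tested genes of that chromosome, in a panel for each clone. The bar of chromosome 8 lies below 0 in every panel, at -0.573 in gs2_B4 and -0.241 in gs1_C8, and those of chromosomes 19 and X lie low in some clones.

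A second fit, added after these values were seen, gave each gene's change relative to the median of the other genes of its chromosome, taken as known without error. In the first fit, 14, 18, 15, 11, 13 and 18 of the 37 genes off chromosome 8 were lower in gs1B8, gs2_B4, gs1_B11, gs2_F6, gs1_B4 and gs1_C8, where 14.7% (gs1B8) to 25.2% (gs1_B4) of all genes off it were. Higher were 0, 5, 1, 1, 10 and 7 of the 37, where 12.6% (gs1B8) to 25.2% (gs2_B4) of all genes off it were. The median log2 fold change of the 37 was 0.000164 in gs1_B4 and between -0.108 (gs1_C8) and -0.0437 (gs2_F6) in the other clones. In the relative fit 14 of the 43 genes were lower in gs1B8 (12% of all genes), 22 in gs2_B4 (21%), 21 in gs1_B11 (20.7%), 11 in gs2_F6 (13.5%), 11 in gs1_B4 (21.4%) and 21 in gs1_C8 (19.6%). Higher in that fit were 0, 4, 1, 1, 9 and 4 in the same clone order, where 10.9, 20.7, 19.8, 9.96, 20.7 and 20.5% of all genes were. In gs1_B4 the shares of the set, 25.6% lower and 20.9% higher, lay near those of all genes. Both Drp1 clones were lower for 13 genes (7.45% of all genes), both Fis1 clones for 10 (6.13%) and both Mff clones for 9 (7.23%). Relative to the chromosome, 3 genes were lower in all 6 clones, where 0.538% of all genes were: Mcm5, Gins3 and E2f1. The same 3 were called relative to the 50 nearest genes. Over all settings tried, the largest adjusted p of Mcm5 in any clone was 0.0476, close to the threshold.

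Relative to its chromosome, Mcm5 stood at -0.18, -0.37, -0.16, -0.12, -0.16 and -0.24 in the order gs1B8, gs2_B4, gs1_B11, gs2_F6, gs1_B4 and gs1_C8, with adjusted p 0.00593, 1.36e-06, 0.00622, 0.0445, 0.00505 and 0.000182. Gins3 stood at -0.31, -0.44, -0.35, -0.42, -0.23 and -0.31, with adjusted p 0.00354, 7.07e-05, 0.000621, 0.000205, 0.0139 and 0.00163. E2f1 stood at -0.52, -0.64, -0.76, -0.45, -0.27 and -0.24 (adjusted p 1.08e-06, 2.2e-08, 4.39e-09, 3.26e-06, 0.000494 and 0.00162). These 3 genes thus kept their sign and their call in each clone. Mcm5 and Gins3 kept less than the whole of their difference in each. Cdt1 was at 0.046, 0.058, 0.0055, -0.032, -0.085 and -0.26 and Orc6 at -0.10, -0.085, -0.18, 0.0048, 0.025 and -0.12. Apart from Cdt1 in gs1_C8 and Orc6 in gs1_B11, these values lay near that of the chromosome. Cdt1 was then called in gs1_C8 alone of the 6 clones and Orc6 in gs1_B11 alone. Prim1 was at -0.12, -0.30, -0.55, -0.09, -0.059 and -0.027 and was called in gs2_B4 and gs1_B11.

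Among the licensing factors, Cdc6 and Orc1 did not follow Orc6 and Cdt1. Cdc6, which loads MCM together with Cdt1, was higher in gs2_B4 (0.39 ± 0.045, adjusted p 4.33e-07) and gs1_B4 (0.32 ± 0.045, adjusted p 8.13e-06) and lower in gs2_F6 (-0.13). Orc1, the ATPase of the origin recognition complex, was higher in gs2_B4 (0.26) and was called in no other clone. Within 1 clone the licensing genes split, and in gs2_B4, 2 of the 4 were lower and 2 higher. Relative to the chromosome, Cdc6 and Orc1 remained higher in gs2_B4, and Orc6 and Cdt1 were not called there.

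In the first fit the other MCM subunits moved less than Mcm5. Across the 6 clones Mcm2, Mcm3, Mcm4, Mcm6 and Mcm7 lay between -0.35 (Mcm7 in gs1_B4) and 0.26 (Mcm3 in gs1_B4). Mcm7 was lower in both Mff clones (-0.35 and -0.32) and in no other clone. Relative to chromosome 5 Mcm7 stood at -0.34 and -0.56, lower than Mcm5 stood relative to its own chromosome in these clones. Mcm2 was lower in 4 clones, down to -0.22 in gs1_C8. Mcm3 had 221, 212 and 226 CPM in gs1_C8 and 310, 299 and 308 in gs1_B4, against 250.1, 253 and 249.5 in parental cells. It was thus lower in gs1_C8 (-0.20 ± 0.035, adjusted p 8.15e-05) and higher in gs1_B4 (0.26 ± 0.035, adjusted p 5.14e-06), with no overlap of the 3 groups. Relative to chromosome 1, Mcm3 stood at 0.018 in gs1_B4 and was not called there.

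Helicase activation genes divided by subunit. Gins2 had 17.1, 16 and 13.7 CPM in gs1B8 and 12.1, 10.99 and 10.7 in gs2_B4, against 23.3, 23.2 and 22.7 in parental cells. The groups did not overlap, and Gins2 changed by -0.58 ± 0.1 and -1.05 ± 0.11 (adjusted p 0.000263 and 8.33e-08). Gins2 also stood at 11.6, 12.2 and 9.78 CPM in gs1_B11 (-1.04) but was not called in gs2_F6 (-0.24, adjusted p 0.0819). Relative to chromosome 8 it was -0.77 in gs1_B11 and -0.47 in gs2_B4, both called, and -0.21 in gs1B8 (adjusted p 0.149). Gins4 was lower in 4 clones, down to -0.69 in gs2_B4, and relative to its chromosome lay between -0.12 (gs1_B11) and 0.16 (gs2_F6). Gins1, on chromosome 2, was lower in gs1_C8 alone of the 6 (-0.25). Its share of the counts of the 4 GINS subunits was 17.4 to 27.2% in the clone libraries and 16.9 to 17.4% in parental libraries.

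Cdc45, the third part of the active helicase, was higher in 3 clones. Its level was 71.4, 69.2 and 68.2 CPM in gs1_B4 and 59.5, 59.6 and 59.02 in gs1_C8, against 52.7, 51.4 and 58.3 in parental cells. All 6 Mff clone libraries lay above the highest parental one, gs1_C8 narrowly. Cdc45 was higher in gs1_B4 (0.33 ± 0.045, adjusted p 4.04e-06), in gs1_C8 (0.12 ± 0.045, adjusted p 0.0315) and in gs2_B4 (0.15). At least 1 of the Mff clones lost its Cdc45 call under some settings, given here with the larger adjusted p of the pair. These were no filter (0.118), each clone fitted alone (0.073) and 27 libraries in 1 fit (0.146). The others were leaving out parental library 1 (0.0721), parental library 2 (0.114) or gs1_C8 library 2 (0.0706). Mcm10, which helps to activate the helicase, was lower in gs1_B11 (-0.38) and gs2_B4 (-0.17). Relative to chromosome 2 Mcm10 was called lower in gs1_B11 and gs1_C8 and was not called in gs2_B4.

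Of the polymerase genes, the alpha subunits and primase were lower in most clones, and those of delta and epsilon were not. Pola2, the second subunit of polymerase alpha, had 61.6, 54 and 52.6 CPM in gs1_B4 and 51.2, 52.5 and 48.2 in gs1_C8, against 69.2, 70.2 and 68.7 in parental cells. These ranges did not overlap, and the changes were -0.34 ± 0.057 and -0.46 ± 0.058 (adjusted p 6.48e-05 and 1.68e-06). Relative to chromosome 19 they were -0.13 and -0.15. Pola2 was then still called lower in gs1_C8 but not in gs1_B4 (adjusted p 0.0865). Pola1, the catalytic subunit, had 183, 177 and 188 CPM in gs1_C8 and 113, 119.8 and 134 in gs1_B4, against 168, 158 and 157 in parental cells. Gs1_C8 was above and gs1_B4 below the parental range, with 0.17 ± 0.056 (adjusted p 0.0155) and -0.42 ± 0.056 (adjusted p 3.27e-06). Relative to the X chromosome Pola1 was higher in both, at 0.26 and 0.30. It was also called higher there in gs1_B11, where the first fit called it lower (-0.319). Relative to the 50 nearest genes Pola1 was called higher in gs1_C8 and lower in gs2_B4, and was not called in gs1_B4 or gs1_B11. Pold1, the catalytic subunit of polymerase delta, was called in none of the 6 clones. Pold2, its accessory subunit, was lower in both Mff clones (-0.22 in gs1_B4 and -0.23 in gs1_C8) and higher in gs2_B4 (0.22). Pole, the catalytic subunit of polymerase epsilon, was lower in gs2_F6 (-0.18) and higher in gs1_C8 (0.29), and Pole2 was higher in gs2_B4 (0.17) and gs1_B11 (0.19).

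Of the 4 clamp loader genes, Rfc2 and Rfc4 were higher in both Mff clones. Rfc4, a small loader subunit, had 58.9, 57.8 and 53.4 CPM in gs1_B4 and 56.05, 56.9 and 56.5 in gs1_C8, against 44.6, 44.5 and 46.1 in parental cells. The groups did not overlap (0.30 ± 0.044, adjusted p 1.22e-05, and 0.31 ± 0.044, adjusted p 8.21e-06), and both calls held relative to chromosome 16. Rfc4 was higher in gs2_F6 too (0.25). Rfc2 had 78.9, 73.99 and 67.2 CPM in gs1_B4 and 75.4, 69.7 and 68.3 in gs1_C8, against 61.8, 63.5 and 62.2 in parental cells. It was above the parental range in both clones (0.20, adjusted p 0.00666, and 0.18, adjusted p 0.0164). Relative to chromosome 5 Rfc2 was -0.061 in gs1_C8 and not called. At least 1 Mff clone also lost its Rfc2 call without gs1_B4 library 1 (larger adjusted p of the pair 0.0523) or gs1_C8 library 1 (0.0751). With 27 libraries in 1 fit this was so too (0.0595). Rfc5 had 99.9, 99.4 and 98.95 CPM in gs1_C8 and 76.3, 79.8 and 76.2 in gs1_B4, against 90.8, 83.5 and 84.6 in parental cells. Rfc5 was higher in gs1_C8 (0.19) and lower in the other 5 clones (from -0.15 in gs2_F6 to -0.31 in gs1_B11). Relative to chromosome 5 it was -0.043 in gs1_C8 and not called, and lower in the other 5. Pcna, the clamp itself, was lower in gs1B8 (-0.22), gs2_B4 (-0.33) and gs1_B11 (-0.33) and higher in gs1_B4 (0.22). It lies on chromosome 2, whose other genes had a median of -0.233 in gs1_B11 and 0.102 in gs1_B4. Relative to that chromosome Pcna was called lower in both Drp1 clones and was not called in gs1_B11 or gs1_B4.

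Lagging strand and single-strand binding genes were lower or not called in every clone. All 4 were lower in gs2_B4 and in gs1_B4, and none was called in gs2_F6. Rpa2, a subunit of the single-strand binding complex, was lower in the 5 clones other than gs2_F6, from -0.28 in gs2_B4 to -0.39 in gs1_B4. Relative to chromosome 4, Rpa2 remained lower in those 5, between -0.30 in gs1B8 and -0.35 in gs1_B4. Lig1, the ligase that joins Okazaki fragments, was lower in 4 clones, down to -0.42 in gs2_B4, and stood at -0.45 there relative to chromosome 7. Fen1, the flap nuclease, was lower in 4 clones, down to -0.49 in gs2_B4, but was called in none relative to chromosome 19, where it lay between -0.04 and 0.098.

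In deoxynucleotide supply, Rrm2 was lower in the Drp1 and Fis1 clones (-0.16 in gs1B8, -0.25 in gs2_B4, -0.17 in gs1_B11 and -0.21 in gs2_F6) and higher in the Mff clone gs1_B4 (0.22). Tk1, which salvages thymidine, was lower in gs2_B4 (-0.38), gs1_B11 (-0.37) and gs1_C8 (-0.42). Rrm1, the large reductase subunit, moved little and was called in gs1_B4 alone of the 6 (-0.10). The chromatin genes Chaf1a, Chaf1b and Uhrf1 were all lower in gs1_C8 (-0.32, -0.51 and -0.47) and none was called in gs1_B4. Chaf1b, a subunit of the histone chaperone CAF-1, was lower in 4 clones. Uhrf1, which keeps DNA methylation after replication, was lower in 3.

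Among the E2F factors and cyclins E, E2f8, an atypical repressor, had 55.2, 56.3 and 53.6 CPM in gs1_B11 and 55.2, 55.2 and 52.98 in gs2_F6, against 73.3, 66.5 and 64.04 in parental cells. The Fis1 clones lay below the parental range (-0.30 ± 0.052, adjusted p 8.09e-05, and -0.33 ± 0.052, adjusted p 5.27e-05), and E2f8 was lower in gs1_C8 as well (-0.24). E2f2 was lower in gs2_B4 (-0.45) and both Mff clones (-0.52 in gs1_B4 and -0.30 in gs1_C8). Ccne1 had 20.97, 20.1 and 20.8 CPM in gs1_B4 and 20.7, 22.6 and 21.8 in gs1_C8, against 14.9, 13.96 and 14.3 in parental cells. All 6 Mff libraries were above the parental range (0.49 ± 0.068, adjusted p 5.22e-06, and 0.58 ± 0.068, adjusted p 6.77e-07). In the Fis1 clones Ccne1 had 9.57, 10.4 and 9.37 CPM (gs1_B11) and 11.3, 12.7 and 13.1 CPM (gs2_F6), below the parental range, and in Drp1 clone gs1B8 it had 9.32, 9.72 and 8.68 CPM. It was lower in these 3 clones (-0.55, -0.23 and -0.65) and not called in gs2_B4 (0.013). These signs held relative to chromosome 7. Ccne2 was called in none of the 6 clones.

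Clones of 1 genotype often differed from each other. Between gs2_B4 and gs1B8, 21 of the 43 genes differed, 14 lower and 7 higher in gs2_B4, where 41.0% of all genes differed. Between gs2_F6 and gs1_B11 it was 21 genes, 4 lower and 17 higher in gs2_F6, where 47.6% of all genes differed. Between gs1_C8 and gs1_B4 it was 23, 18 lower and 5 higher in gs1_C8, where 54.7% of all genes differed. In the Mff clones 4 genes were called in opposite directions against parental cells, as were 8.69% of all genes: Mcm3, Mcm4, Pola1 and Rfc5. In the Drp1 and the Fis1 clones 0 of the 43 were, by edgeR or by DESeq2, where 2.07% and 5.29% of all genes were, so counts of 0 in 43 are near the general share. Relative to the chromosome, none of the 4 in the Mff clones kept opposite calls.

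With the counts of each clone's 3 libraries summed, so 2 sums a genotype, no gene of the 43 differed between genotypes by edgeR. For Drp1 against Fis1 0 of 43 were called (0 of all genes, 0%), with 1 at unadjusted p below 0.05. For Drp1 against Mff it was 0 (0.00645% of all genes), with 2 unadjusted, and for Fis1 against Mff 0 (0.00645%), with 3 unadjusted. The widest differences were those of Ccne1, at -0.83 ± 0.27 for Drp1 against Mff (adjusted p 0.763) and -0.93 ± 0.27 for Fis1 against Mff (adjusted p 0.543). With 2 clones a genotype, a p that misses the threshold does not show that the genotypes act alike.

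Other genes of the pathway gave mixed counts. Of 23 tested genes of the E2F and RB circuit, 9, 11, 14, 10, 9 and 11 were lower in gs1B8, gs2_B4, gs1_B11, gs2_F6, gs1_B4 and gs1_C8, and 3, 5, 3, 2, 2 and 5 higher. Of all genes 17.4, 26.3, 25.9, 18.2, 26.8 and 25.2% were lower and 12.1, 24.1, 21.4, 13.1, 20.9 and 21.5% higher in these clones, and the counts of the lists that follow stand beside the same shares. E2f4, a repressive E2F, and Tfdp1, its dimer partner, were lower in all 6 clones, and the pocket protein Rbl2 in 5, the exception being gs1_C8. All 3 lie on chromosome 8, and relative to it E2f4 was at -0.026, -0.06, -0.20, 0.10, 0.069 and -0.30 and Tfdp1 at 0.044, 0.015, 0.028, 0.0061, -0.19 and -0.015 in the same order. Cdkn1a, an inhibitor of cyclin-dependent kinases, was higher in 5 clones (0.67 in gs1_B11 to 1.46 in gs1_B4) and not called in gs1_C8 (-0.41, adjusted p 0.106). Of 33 other replication factors 7, 14, 13, 7, 15 and 14 were lower and 4, 4, 5, 5, 6 and 7 higher. The lower counts in gs1B8 and gs2_F6 are near the general share, and the higher counts are near or below it in all 6 clones. Orc2, a subunit of the origin recognition complex, was higher in all 6 clones (0.14, 0.20, 0.18, 0.13, 0.34 and 0.25), but relative to chromosome 1 it was called in gs1_C8 alone of the 6 (0.17). Rnaseh2a, a subunit of ribonuclease H2 on chromosome 8, was lower in both Drp1 and both Mff clones, and relative to that chromosome in none of them.

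Of 14 genes of chromatin assembly and maintenance, 8, 5, 7, 6, 6 and 6 were lower and 0, 2, 1, 2, 5 and 1 higher. The histone chaperone Asf1b and the remodeller Hells were lower in all 6 clones (-0.60, -1.01, -0.80, -0.23, -0.27 and -0.29 for Asf1b and -0.23, -0.76, -0.18, -0.19, -0.39 and -0.59 for Hells). Asf1b lies on chromosome 8, and relative to it was -0.24, -0.44, -0.54, 0.065, -0.0085 and -0.051. Relative to chromosome 19 Hells was -0.11, -0.17, -0.13, -0.16, -0.18 and -0.28. Relative to the chromosome Asf1b was called lower in both Drp1 clones and gs1_B11, and Hells in the 5 clones other than gs1B8 (adjusted p 0.054 there), so neither was in all 6. Of 10 further genes of deoxynucleotide supply 5, 5, 5, 2, 0 and 3 were lower and 0, 1, 1, 0, 2 and 4 higher. Dut, the dUTPase, was lower in both Drp1 clones (-0.27 in gs1B8 and -0.64 in gs2_B4). Of 15 genes of G2 and mitosis 3, 12, 9, 2, 8 and 11 were lower and 2 higher, both in gs2_F6. Cdk1, the mitotic kinase, stood at -0.20, -0.29, -0.28, -0.13, -0.18 and -0.38, and Plk1 at -0.21, -0.33, -0.32, -0.045, -0.25 and -0.21, in the same clone order.

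With leflunomide most of these genes lay above their control. Of the 43 genes, 37 lay above DMSO and the median log2 fold change was 0.149, against 0.00372 for all genes tested. Called higher were 3 genes, where 1.84% of all genes were: Ccne1, Rrm2 and Prim1. Called lower were 0, where 0.944% of all genes were. At unadjusted p below 0.05, 12 were higher and 0 lower. DESeq2 called 9 higher and 0 lower, where it called 427 and 340 of all 12603 genes.

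Ccne1 had 28.2, 30.2 and 19.5 CPM with leflunomide, against 15.1, 14.1 and 13.6 with DMSO. Rrm2 had 415, 452 and 373 CPM, against 314, 321 and 307, and Prim1 108, 113 and 111 CPM, against 88.9, 88.7 and 89.3, in the same 2 groups. In each of the 3 genes the leflunomide libraries lay above the DMSO ones, with library 3 the lowest of the treated in Ccne1 and Rrm2. The changes were 0.86 ± 0.16 (adjusted p 0.0348), 0.40 ± 0.079 (0.0414) and 0.31 ± 0.057 (0.0341). Each of the 3 calls was lost on leaving out any 1 of the other 5 libraries than leflunomide 3, with adjusted p of up to 0.154 for Ccne1, 0.191 for Rrm2 and 0.169 for Prim1. Without DMSO library 3, which had 23.2% ribosomal RNA, the adjusted p was 0.0588 for Ccne1, 0.109 for Rrm2 and 0.109 for Prim1. All 3 were called without leflunomide library 3. E2f1, Rfc4 and Cdc45 were not called (0.48, 0.44 and 0.42, adjusted p 0.0589, 0.0705 and 0.083).

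Leflunomide library 3 stood apart from the other treated libraries over the whole set. The mean log2 level of the 43 genes relative to the DMSO mean was 0.287 in leflunomide library 1, 0.232 in library 2 and -0.0414 in library 3, against 0.0165, 0.0299 and -0.0464 in the DMSO libraries. Above the DMSO mean were 41, 37 and 14 of the 43 genes in the treated libraries. Without leflunomide 3, 17 of the 43 genes were higher and 1, Pola1, lower, where 5.74% of all genes were higher and 6.65% lower. This library was singled out after its values were seen. E2f1 was then 0.59 (adjusted p 0.00706), Ccne1 1.03 (0.00439), Cdc45 0.54 (0.00582), Rfc4 0.54 (0.0112), Tk1 0.50 (0.00982) and Pola1 -0.34 (0.0179). Summed epithelial markers were 1400 to 1560 CPM with leflunomide, against 1710 to 1800 with DMSO, and summed leukocyte markers 6.98 to 7.16, against 3.06 to 4.59 CPM. The part of either in the changes was not tested.

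**Figure D4:**
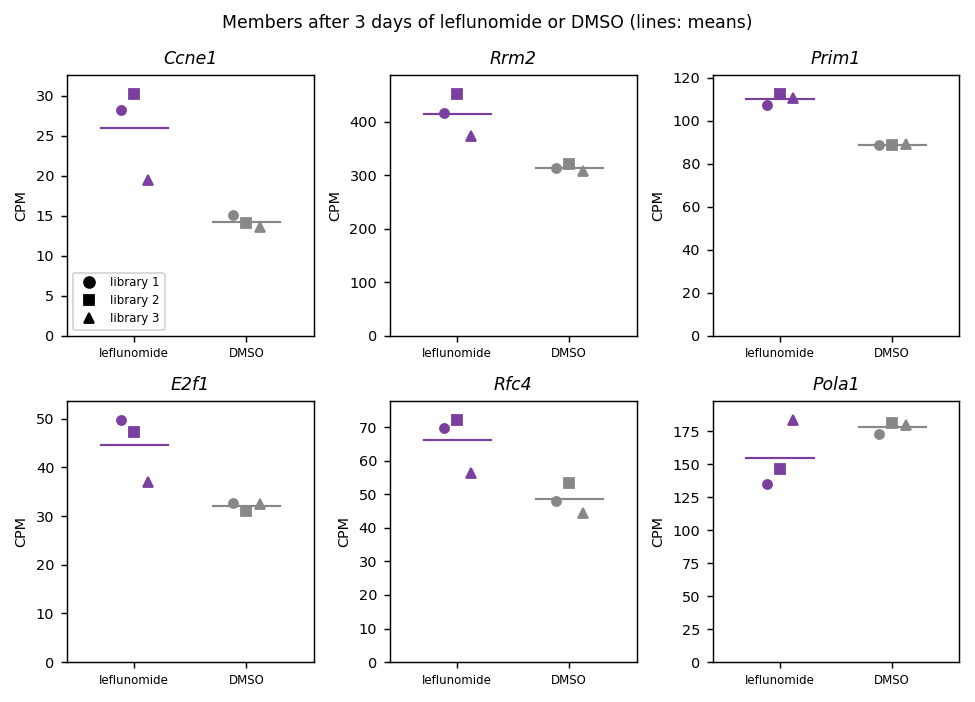
CPM (linear axes from 0) of 6 genes after 3 days of leflunomide (left) or DMSO (right), with a marker shape for each library number and a line at the mean of 3. Ccne1, Rrm2 and Prim1 are the called genes, and E2f1, Rfc4 and Pola1 were added after their values were seen. Library 3 (triangle) of the leflunomide group lies nearest the DMSO group in Ccne1, Rrm2, E2f1, Rfc4 and Pola1, and in Ccne1 stands at 19.5 CPM.

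By role, the median with leflunomide was highest for the E2F factors and cyclins E (0.348, E2f2 lowest at -0.32) and deoxynucleotide supply (0.346, with its 3 genes between 0.21 and 0.398). The clamp and loader stood at 0.233 and helicase activation at 0.186, and the chromatin genes at 0.0255. MCM subunits lay within a narrow band, 0.0833 to 0.157, and none was called. Of the 7 polymerase and primase genes, Pola1 (-0.20, adjusted p 0.349) and Pola2 (-0.092, adjusted p 0.654) lay below 0. Pola1 had 135, 147 and 183.5 CPM with leflunomide, against 173, 182 and 180 with DMSO, so that libraries 1 and 2 lay below the DMSO range and library 3 above it. Among the other pathway lists, Orc5, an origin recognition subunit, was lower (-0.36, adjusted p 0.0375), and no other gene of these lists was called.

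The leflunomide change was set against the mean change of the 6 clones in 1 fit of all 27 libraries, each arm with its own controls. For 23 of the 43 genes it was higher, where 14.5% of all genes were, and for 0 lower, where 10.6% were. At unadjusted p below 0.05 the counts were 28 and 0, and DESeq2 gave 23 and 0. The median difference was 0.267, against 0.0234 for all genes. Leaving out 1 library gave 16 (without leflunomide 1) to 34 (without leflunomide 3). Relative to the chromosome 24 were higher and 1 lower.

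E2f1 differed by 0.97 ± 0.097 (adjusted p 1.27e-07), with 0.48 for leflunomide and a mean of -0.51 over the clones. Gins3 differed by 0.88 ± 0.11 (2.91e-06), with 0.23 for leflunomide and a clone mean of -0.67. Prim1 differed by 0.56 ± 0.059 (2.95e-07), with 0.31 for leflunomide and a clone mean of -0.26. Gins3 had 42.4, 42.4 and 31.7 CPM with leflunomide, against 33.01, 32.6 and 34.05 with DMSO. E2f1 had 49.7, 47.3 and 36.98 CPM with leflunomide, against 32.7, 30.99 and 32.5 with DMSO. In both genes leflunomide libraries 1 and 2 lay above the DMSO range, and library 3 lay below it in Gins3 and above it in E2f1. The arms were numbered in separate runs of samples, so arm and run cannot be told apart.

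**Figure D5:**
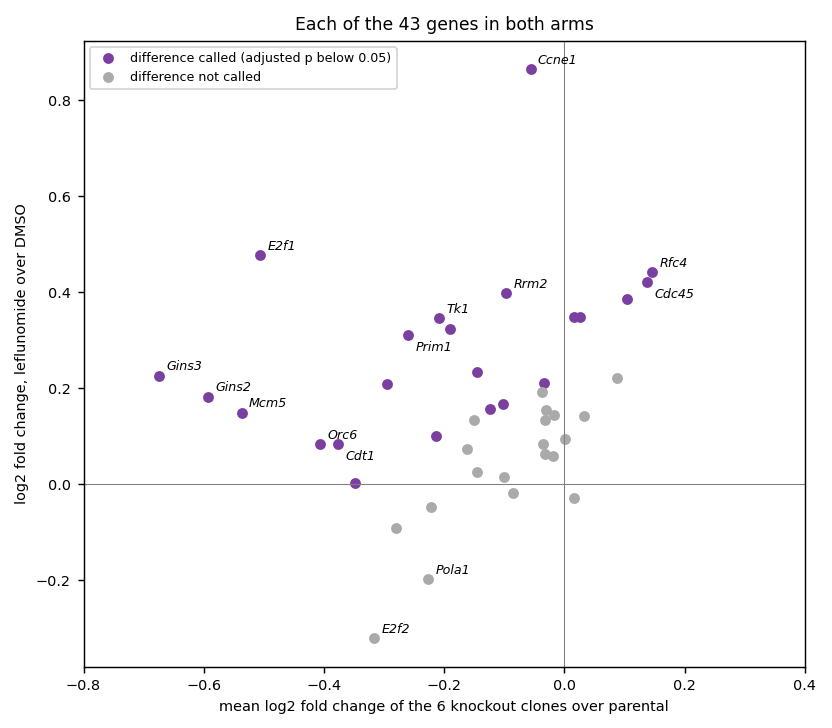
Log2 fold change with leflunomide over DMSO (y axis) against the mean log2 fold change of the 6 clones over parental cells (x axis) for each of the 43 genes, with purple points where the 2 differ at adjusted p below 0.05. Most points lie above 0 on the y axis and left of 0 on the x axis, with Gins3, Gins2, Mcm5 and E2f1 furthest left and Ccne1 at the top.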

How the data were processed

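Poly-A RNA of 27 mouse 4T1 libraries was sequenced, and the submitters' processing notes name Trimmomatic 0.35, RSEM (version not given) and GRCm38 (mm10). The deposited values are expected counts per gene made by the authors with RSEM, and 74.9% of those above 0 are whole. Normalization before deposit is not given in the sources used here. They were rounded to whole counts. Genes were filtered with filterByExpr (minimum count 10) and scaled by TMM. The 6 clones and parental libraries entered 1 fit, the drug libraries another, and their comparison a fit of all 27. Each used the quasi-likelihood test of edgeR 4.0.16 in R 4.3.3, with Benjamini-Hochberg adjustment over all genes tested. Genotypes were also compared with edgeR, after the counts of a clone had been added up into a single column. CPM values are TMM-scaled. Changes relative to a chromosome used the median log2 fold change of its other genes as an offset. Per-length levels used merged GENCODE exons of the same build.

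The 43 genes, the roles and the pathway lists were chosen with earlier results of these data known, so no list is independent evidence. Genes given library by library were those called alike in all 6 clones; for each genotype up to 4 a direction called in both clones and up to 3 called in opposite directions; up to 6 a direction called with leflunomide; and the 3 of smallest p where leflunomide was set against the clones. Others are named within their role, and up to 3 a direction of each pathway list. Numbers at the end of the library labels run in series through the arms. Alternatives were DESeq2 1.42.0 and its size factors, no filter, ribosomal RNA genes left out, each clone fitted alone, 27 libraries in 1 fit, a replicate block, each library left out in turn and, added after seeing the data, the last drug run left out and the changes relative to the chromosome or the 50 nearest genes. Scripts were tested on simulated data.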

Additional observations from a re-analysis of the deposited data

Results flagged for a closer look

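Clones of the same genotype differed, by edgeR's test of the difference with adjusted p below 0.05, for 21 of the 43 genes in Drp1 (gs2_B4 against gs1B8), 21 in Fis1 (gs2_F6 against gs1_B11) and 23 in Mff (gs1_C8 against gs1_B4). Of all genes 41.0%, 47.6% and 54.7% differed in these pairs, so the counts are near the general share. In the Mff clones, gs1_C8 against gs1_B4 gave 0.60 for Pola1, -0.46 for Mcm3 and 0.38 for Rfc5 on the log2 scale.

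The change with leflunomide differed from the mean change of the clones for 23 of the 43 genes, all higher with leflunomide, where 14.5% of all genes were higher and 10.6% lower. Leaving out 1 library gave 16 (without leflunomide 1) to 34 (without leflunomide 3). The difference was 0.97 for E2f1, 0.56 for Prim1 and 0.88 for Gins3, each from the test of the difference itself. The groups held 3 libraries each, so no single library was tested as standing apart.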

How the results depend on the processing

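Of the counts of called genes, 239 of 277 under other settings and 262 of 279 with 1 library left out stayed within 1.5 times the reported count, and of the named values 249 of 276 and 358 of 387 kept direction and call. With DESeq2 size factors, with DESeq2 and without ribosomal RNA genes, 2 genes were higher in gs2_F6; without those RNA genes 1 was also higher in gs1B8 and 1 in both Drp1 clones. With leflunomide 9 were higher under DESeq2 (427 of all 12603 genes were) and 9 with no filter (487 of 23999). With all 27 libraries in 1 fit 14 were (1207 of 14114). Without the last run 14 were higher and 1 lower, where 7.15% and 8.12% of all genes were. In the main fit 232 of 12603 genes were higher, so the calls over all genes rose under these settings too. Lower in gs2_F6 were 9 with no filter, 9 with each clone fitted alone and 8 in the fit of 27; lower in both Mff clones were 9 and 9 in the last of these fits. In the fit of 27, gs2_B4 had 3 higher, gs1_B4 11 lower, gs1_C8 4 higher, both Mff clones 2 higher and 1 opposite.

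Relative to the chromosome, gs1_B4 had 11 lower and gs1_C8 4 higher, 11 differed between Drp1 clones, 9 were lower in both Mff clones with 0 opposite, 3 were lower in all 6, and 1 was lower in the comparison with leflunomide. Relative to the 50 nearest genes, lower were 10 in gs1B8, 10 in gs1_B4, 9 in both Drp1, 8 in both Mff and 3 in all 6 clones; higher were 2 in gs1_B11, 2 in gs2_F6 and 4 in gs1_C8; 11 differed between Drp1 clones; opposite were 1 in Fis1 and 0 in Mff. Against gs1_B4, gs1_C8 turned to -0.042 for Pola1 relative to the chromosome and -0.02 for Rfc5 relative to the nearest genes.

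Leaving out each library in turn gave 0 to 1 higher in both Drp1 clones, 0 to 1 in gs1_B11, 0 to 1 in gs1B8, 2 to 5 in gs2_B4, 1 to 3 in gs2_F6 and 0 to 17 with leflunomide, 0 to 1 lower with leflunomide, 9 to 13 lower in gs2_F6, and 0 to 1 opposite in Fis1. The causes were not tested. With serial run as a replicate block, Prim1 with leflunomide lost its call (adjusted p 0.059) and no count moved over 1.5 times. The labels do not say that run pairs samples: same-run libraries had a median correlation of deviations of 0.0979 in the knockout arm (31 of 63 pairs over 0.1) and 0.207 in the drug arm (3 pairs, from -0.00535 to 0.214). Libraries of different runs had medians of -0.0434 in the knockout arm (5 of 126 pairs over 0.1) and -0.0879 in the drug arm (1 of 6). The main fits held no term for run. Genotype counts rest on 2 clones each.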

Other observations

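Unedited cells of the 2 arms were near each other by chromosome. DMSO minus parental medians lay between -0.0392 (chromosome 7) and 0.0166 (chromosome 13), with -0.0289 on chromosome 8. Dut, the dUTPase on chromosome 2, was the 1 gene of the pathway lists lower in all 6 clones relative to its chromosome, at -0.22, -0.45, -0.31, -0.24, -0.20 and -0.46 in the order gs1B8, gs2_B4, gs1_B11, gs2_F6, gs1_B4 and gs1_C8. Of all genes 0.538% were lower in all 6 by this measure, so 1 gene over these lists is near the general share. In the first fit no gene of deoxynucleotide supply in these lists was lower in all 6.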
